A study of Mus musculus with 8 samples.

Results

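Hand1, Hand2, Nkx2-5, Isl1, Mef2c, Smarcd3 and Myocd, 7 genes for cardiac transcription factors and one cardiac chromatin subunit, were examined in mouse embryoid bodies. They were found by gene symbol in the array platform's annotation. Of the 7, 5 had a probe, 1 probe each among 23473 gene probes, and all 5 were tested. Nkx2-5 and Mef2c matched no probe by symbol or synonym and were not analysed here. The embryoid bodies came from mouse embryonic stem cells, labelled iTbx6 T-GFP, for which the line's name and the design text tie doxycycline (Dox) to the induction of Tbx6. Cells were kept in serum-free differentiation medium with no growth factors added for 2 days, then taken apart and reaggregated for 2 more. The 4 groups were day 2 without Dox, day 2 with Dox, day 4 without Dox and day 4 with Dox, with 2 arrays each and 8 in all. All groups carried the same line, and no cells without the transgene received Dox, so an effect of Dox itself cannot be told apart from that of Tbx6. The labels do not say when Dox was added, which promoter drives the transgene, whether the line is 1 clone, or whether replicates were separate cultures. The p-values therefore measure only the spread between these arrays, which may be technical. An embryoid body is a mixed tissue with no defining marker of its own.

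These genes act at successive steps of heart formation. In the mouse embryo, the heart-forming mesoderm first expresses Mesp1. Isl1 then marks progenitors that feed the growing heart tube, and Nkx2-5, Mef2c, Hand1 and Hand2 act as DNA-binding regulators of the forming chambers. Myocardin, the product of Myocd, binds no DNA by itself and activates muscle genes through serum response factor (SRF), while Smarcd3 encodes BAF60C, a subunit of the BAF chromatin remodelling complex through which cardiac factors reach their targets. Several of them also work outside the heart: Hand1 in trophoblast giant cells, Isl1 in motor and sensory neurons, and Hand2 in sympathetic neurons and limb buds.

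Values are log2 of the spot intensity after subtraction of the array's blank spots and quantile normalisation. A change is a difference of group means on that scale, with the standard error of a limma fit over all arrays, and passes when its p, adjusted over 21670 probes, is under 0.05. Across arrays, 20197 to 20927 gene probes lay above the blank background. Arrays of one group correlated at 0.993 or more, and arrays of different groups at 0.985 or less. T (Brachyury) was 93.4-fold higher with Dox at day 4 (log2 change 6.55 ± 0.11, limma adjusted p = 4.56e-07). Dox was tied to Tbx6 and not to T, so the level of T does not measure the transgene. At day 2 T changed by 0.16 ± 0.11 (limma adjusted p = 0.454). Neither T nor Tbx6 passed at day 2, where 11.8% of all probes did with Dox. The Tbx6 probe changed by -0.20 ± 0.12 at day 2 (limma adjusted p = 0.395) and by 0.62 ± 0.12 at day 4 (limma adjusted p = 0.00916). The day-4 Tbx6 call ended without DoxOn_day4 replicate 2 (limma adjusted p = 0.053) and without DoxOFF_day4 replicate 1 (limma adjusted p = 0.0512). Where that probe lies relative to the transgene was not given, so directions are those of the arrays as labelled.

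Smarcd3 was the only measured member with a change that passed. It rose between day 2 and day 4 without Dox, and it was 2.53-fold lower with Dox than without at day 4. The other 4 members passed in none of the 5 comparisons. They were dim, and the 2 arrays of a group often differed by as much as the groups did. With Dox at day 2, 0 of 5 members passed, where 11.8% of all probes did (5.56% higher and 6.24% lower). With Dox at day 4, 1 of 5 passed, where 29.9% of all probes did (14.4% higher and 15.5% lower). For the difference of the Dox effect between the days 1 of 5 passed, against 22.1% of all probes (11.1% higher and 11% lower). Between day 2 and day 4, 1 of 5 passed without Dox against 38.1% of all probes (20.2% higher and 17.9% lower), and 0 of 5 with Dox against 19% (9.63% and 9.33%). The median change of the members was 0.10 for Dox at day 4, beside -0.04 over all probes tested. These shares of all probes also stand beside the counts of gene lists given below.

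**Figure D1:**
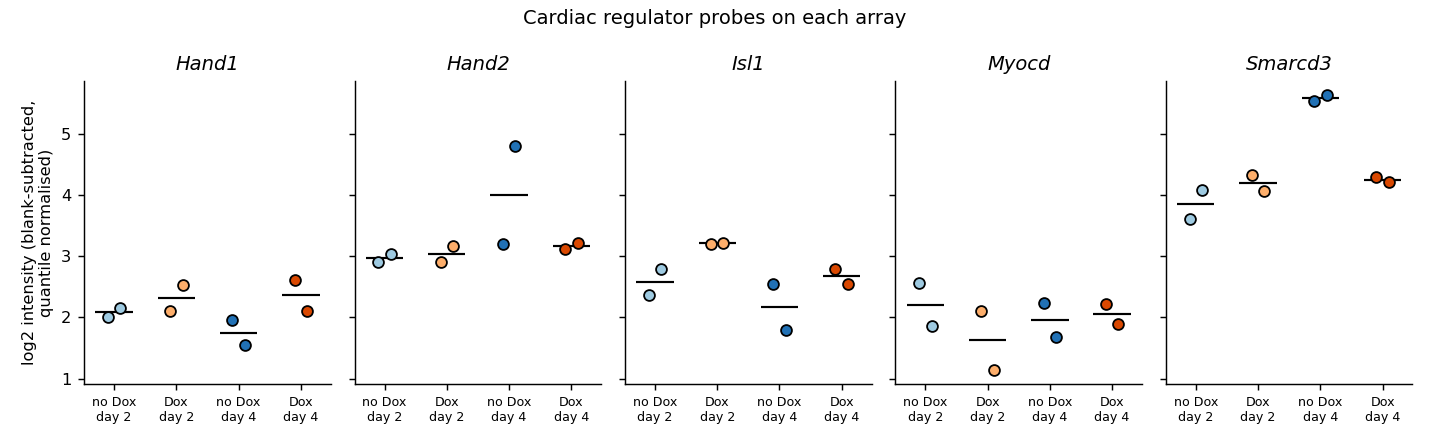
Log2 intensity of the 5 measured members on each of the 8 arrays, grouped by Dox state and day, with points for arrays and bars for group means. The day-4 arrays without Dox stand above all others for Smarcd3, at 5.55 and 5.64, and for Hand2 they lie far from each other, at 3.21 and 4.80.

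Signal strength set what could be read from each probe. All 5 lay above the blank background on 8 of 8 arrays. The array's negative control spots were brighter than the blanks, and against their mean plus 2 SD Smarcd3 and Hand2 stood above on 8 of 8 arrays, Isl1 on 6, Hand1 on 3 and Myocd on 1. Blank-subtracted intensity of Smarcd3 ran from 10.4 to 50.8 scanner units, and that of Myocd from 2.25 to 5.12. Values of Hand1 and Myocd thus describe spots near the level of probes that match no transcript.

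**Figure D2:**
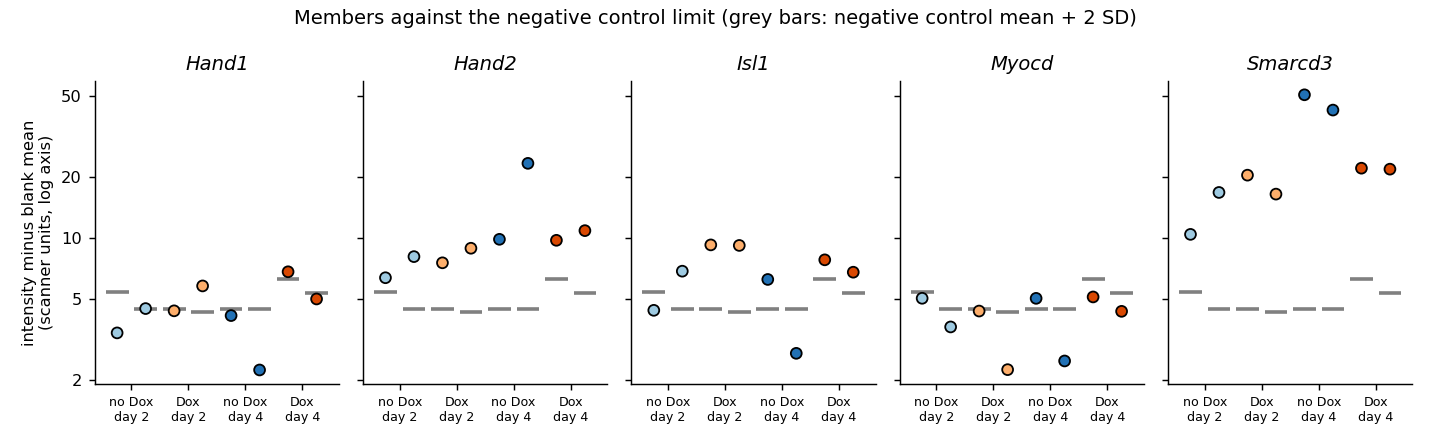
Blank-subtracted intensity of each member in scanner units (log axis) by array, with grey bars at the negative control mean plus 2 SD of that array. Smarcd3 and Hand2 lie above the bar on 8 arrays, Isl1 on 6, Hand1 on 3 and Myocd on 1.

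The log2 intensity of Smarcd3, the BAF60C gene, was 3.62 and 4.09 on the day-2 arrays without Dox and 4.33 and 4.07 on those with Dox. At day 4 it was 5.55 and 5.64 without Dox and 4.29 and 4.22 with Dox. Both day-4 arrays without Dox were higher than all 6 others, which lay within 1 log2 unit of one another. Group means ± SD were 3.85 ± 0.33 and 4.20 ± 0.19 at day 2 without and with Dox, and 5.59 ± 0.07 and 4.25 ± 0.05 at day 4 (n = 2 arrays per group). Ordered by mean, day 2 without Dox, day 2 with Dox and day 4 with Dox came first as neighbours whose differences did not pass, and day 4 without Dox came last. The authors' deposited table gave the same order, with 45.1 and 45.7 at day 4 without Dox, 18.2 and 17.7 at day 4 with Dox, and 11.4 to 18.7 at day 2.

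Without Dox, Smarcd3 rose by 1.74 ± 0.17 from day 2 to day 4, or 3.34-fold (95% interval 1.33 to 2.15, limma adjusted p = 0.000305). With Dox its change over the same time was 0.06 ± 0.17 (-0.36 to 0.47, limma adjusted p = 0.881). Dox against no Dox gave 0.35 ± 0.17 at day 2 (-0.07 to 0.76, limma adjusted p = 0.281) and fell by 1.34 ± 0.17 at day 4 (limma adjusted p = 0.00145). The difference between the 2 Dox effects was itself tested and was -1.69 ± 0.24 (-2.27 to -1.10, limma adjusted p = 0.0036). These calls held in every fit that left out 1 array. Background subtraction set their size: with no correction the day-4 Dox change was -0.47. With normexp on the scanner's background column it was -0.05 (limma adjusted p = 1). That column follows the spot's own brightness, and the setting also added an offset of 50. The part of each in the smaller change was not tested.

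**Figure D3:**
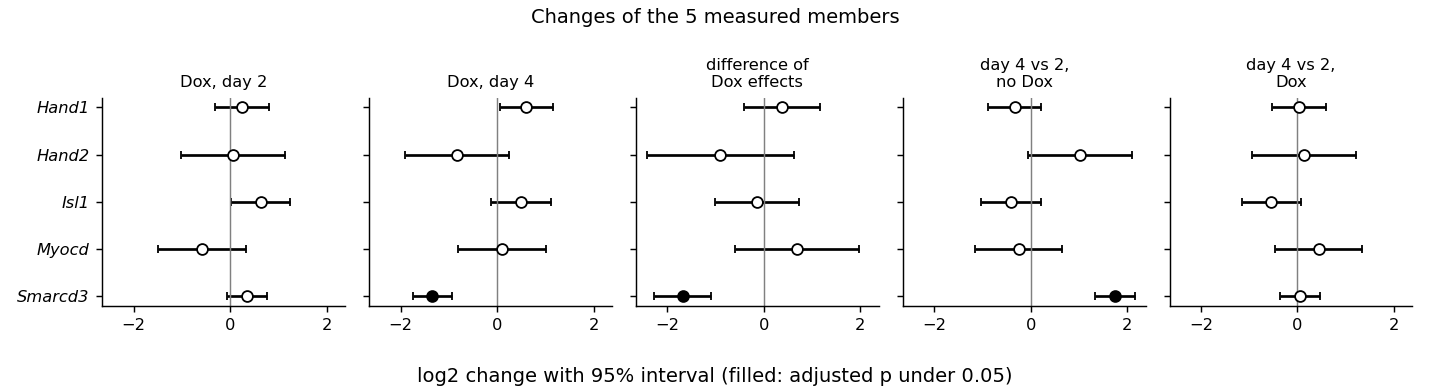
Log2 change of the 5 measured members in 5 comparisons (x axis), with 95% intervals of the limma fit and filled points where the adjusted p is under 0.05. Smarcd3 is filled for Dox at day 4 (-1.34), for the difference of the Dox effects (-1.69) and for time without Dox (1.74), and no other point is filled.

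Neural progenitor markers were examined beside Smarcd3. Of 8 tested, 7 fell with Dox at day 4 (median log2 change -2.0), among them the radial glia gene Fabp7 (-5.29 ± 0.11) and the neural factor genes Pou3f2 (-3.15 ± 0.19) and Pax6 (-3.10 ± 0.16). Without Dox 7 of 8 rose from day 2 to day 4, and Pax6 fell by 1.26 ± 0.16. At day 2, where the Dox change of Smarcd3 did not pass, 0 rose and 3 fell with Dox (median -0.25), Fabp7 by 1.69 ± 0.11, Pax6 by 1.55 ± 0.16 and the progenitor filament gene Nes by 0.72 ± 0.11. The Nes call ended without DoxOn_day2 replicate 2 (limma adjusted p = 0.0541). The summed intensity of the 9 markers on the array was 6576 to 7174 at day 4 without Dox, 1277 to 1379 at day 4 with Dox, and 1313 to 1360 at day 2. The sum is of unlogged values, so the brightest genes weigh most in it. Mean log2 intensity at day 4 without and with Dox was 11.96 and 6.67 for Fabp7 and 10.66 and 9.74 for Otx2. Neurog2 was above background on no array. The part of such cells in the Smarcd3 values was not tested. In bulk samples, fewer cells of a type and less RNA per cell cannot be told apart.

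The named genes whose centred log2 values came nearest to those of Smarcd3 over the 8 arrays, among 15413 genes compared, were Vapb, Akr1e1 and Cartpt. Their root-mean-square differences from it were 0.14, 0.14 and 0.15 log2. Vapb encodes a membrane protein of the endoplasmic reticulum, Akr1e1 an aldo-keto reductase and Cartpt a neuropeptide precursor. Mean log2 intensity of Vapb was 5.83 at day 4 without Dox and 4.57 with Dox, and that of Cartpt 4.12 and 2.73. Each was lower in both day-2 groups than at day 4 without Dox, as Smarcd3 was. Likeness over 8 arrays in 4 groups is a description only.

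The RefSeq promoter window of Smarcd3, 250 bases before to 50 after the start, is shown since it is the member whose level changed. It lies at chr5:24601953-24602252 on the minus strand of GRCm38.p6, and capitals mark the match found.
Smarcd3: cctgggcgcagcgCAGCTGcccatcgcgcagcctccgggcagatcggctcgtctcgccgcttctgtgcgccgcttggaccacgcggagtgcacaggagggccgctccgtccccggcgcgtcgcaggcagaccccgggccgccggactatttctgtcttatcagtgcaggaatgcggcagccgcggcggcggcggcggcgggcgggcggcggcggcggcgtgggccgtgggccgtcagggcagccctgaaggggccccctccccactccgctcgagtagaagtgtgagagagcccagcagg
The window was searched on both strands for the T-box letters AGGTGT, the GATA letters AGATAA, the NK2 letters TNAAGTG and the E-box letters CANNTG. It held 1 E-box, the element that Hand proteins and their partners bind, and none of the other 3. An E-box stood in 72.3% of 32851 windows of this length, a T-box match in 13.7%, a GATA match in 11.2% and an NK2 match in 11.5%. A match of letters is not a binding site, and a missing match concerns these exact letters in these 300 bases only. Other forms of an element were not searched.

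BAF complexes take 1 of 3 alternative BAF60 subunits, encoded by Smarcd1, Smarcd2 and Smarcd3, next to an ATPase and further subunits. Smarcd1, also on the array and picked after its values were seen, was 5.36 and 5.19 at day 2 without Dox, 5.35 and 5.33 at day 2 with Dox, 5.67 and 5.50 at day 4 without Dox, and 4.89 and 5.02 at day 4 with Dox. It too was lower with Dox at day 4 and fell by 0.63 ± 0.11 (limma adjusted p = 0.00631), but its change over time without Dox was 0.31 ± 0.11 (limma adjusted p = 0.073). Of 17 other BAF subunit genes tested, 1 rose and 7 fell with Dox at day 4 (median -0.23). Without DoxOn_day4 replicate 1, DoxOn_day4 replicate 2 or DoxOFF_day4 replicate 2, 4 fell.

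Among those that fell were Smarce1, the BAF57 gene (-1.59 ± 0.09, limma adjusted p = 3.4e-05), and Smarca2, an ATPase gene (-1.01 ± 0.14, limma adjusted p = 0.00183). Smarcc2, a scaffold subunit gene, fell by 1.30 ± 0.32 (limma adjusted p = 0.0231), a call that ended when any 1 of the 4 day-4 arrays was left out (limma adjusted p up to 0.132). Phf10, a subunit gene of progenitor-type complexes also picked after its values were seen, rose by 0.77 ± 0.11 (limma adjusted p = 0.00223). Over time without Dox 4 of the 17 rose and 0 fell (median 0.25), where 20.2% of all probes rose and 17.9% fell. Smarca2 was higher by 3.15 ± 0.14 and Smarce1 by 2.37 ± 0.09. Smarcd3 thus had the same direction as Smarca2 and Smarce1 in these 2 comparisons, both of which use the day-4 arrays without Dox. At day 2, 1 of the 17, Ss18, rose with Dox and 0 fell (median -0.02). The Ss18 call ended without DoxOn_day2 replicate 1, DoxOn_day2 replicate 2 or DoxOFF_day2 replicate 2.

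**Figure D4:**
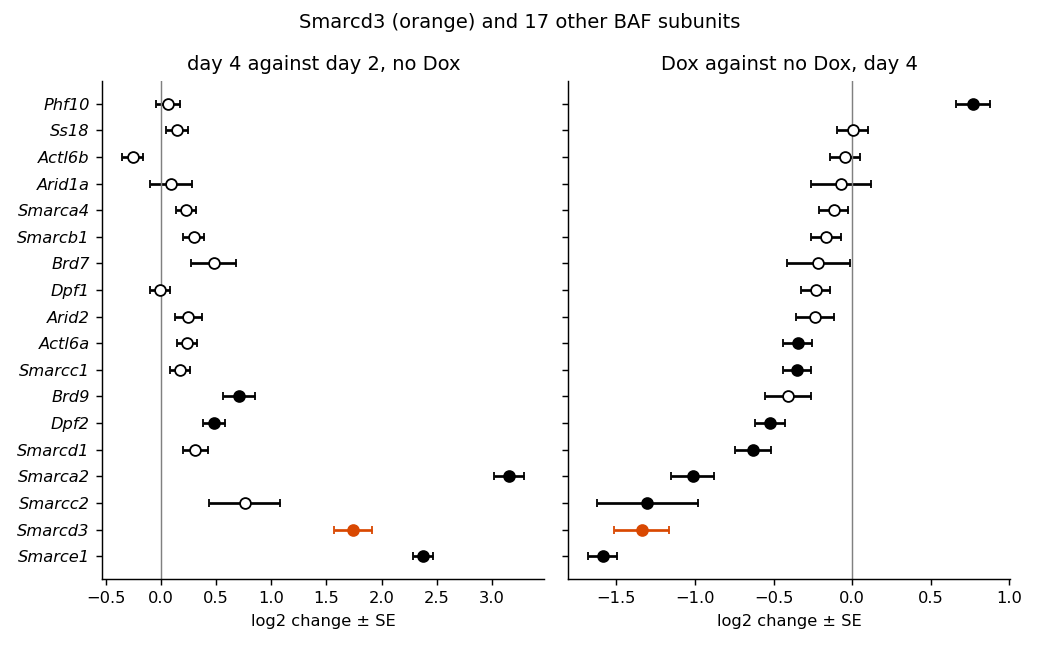
Log2 change ± SE of Smarcd3 (orange) and 17 other BAF subunit genes over time without Dox (left) and for Dox at day 4 (right), filled where the limma adjusted p is under 0.05. Smarce1, Smarca2 and Smarcd3 are filled in both panels, higher at left and lower at right.

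Hand2, which encodes a helix-loop-helix factor of the right ventricle, showed a wide gap between 2 arrays. Its log2 intensity was 2.91 and 3.03 at day 2 without Dox and 2.90 and 3.17 with Dox. At day 4 it was 3.11 and 3.22 with Dox, and 3.21 and 4.80 without Dox. DoxOFF_day4 replicate 2 was the highest of all 8 arrays, and the other 7 lay between 2.90 and 3.22. A gap of 1.59 log2 or more between the same 2 arrays was found for 53 of 21670 tested probes, Hand2 among them. Of 1541 other probes within 0.25 log2 of the same mean level, 2 had such a gap.

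The change of Hand2 with Dox at day 4 was -0.84 ± 0.45 (95% interval -1.91 to 0.24, limma adjusted p = 0.225). Without DoxOFF_day4 replicate 1 it was -1.63 (limma adjusted p = 0.00236), and without DoxOFF_day4 replicate 2 it was -0.04 (limma adjusted p = 0.897). Over time without Dox it was 1.03 ± 0.45 (limma adjusted p = 0.122). That value was 1.83 (limma adjusted p = 0.00119) without DoxOFF_day4 replicate 1 and 0.24 (limma adjusted p = 0.325) without DoxOFF_day4 replicate 2. At day 2 Dox gave 0.06 ± 0.45 (limma adjusted p = 0.965). The 95% interval at day 2, -1.01 to 1.14, leaves room for a doubling either way. The authors' deposited table held the same gap, at 8.8 and 25 for the day-4 arrays without Dox.

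Hand1, the related gene of the left ventricle and of trophoblast, was 2.01 and 2.16 at day 2 without Dox and 2.11 and 2.53 with Dox. At day 4 it was 1.96 and 1.55 without Dox and 2.62 and 2.10 with Dox. All 4 day-2 arrays fell between 2.01 and 2.53. The day-4 change was 0.61 ± 0.23 (95% interval 0.05 to 1.17), with an unadjusted limma p of 0.0363 and an adjusted p of 0.0992. It was 0.35 without DoxOn_day4 replicate 1 (limma adjusted p = 0.407) and 0.40 without DoxOFF_day4 replicate 2 (limma adjusted p = 0.39). At day 2 it was 0.24 ± 0.23 (limma adjusted p = 0.609), and the 2 Dox effects differed by 0.37 ± 0.33 (limma adjusted p = 0.498).

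Trophoblast markers were examined beside Hand1. Of 12 listed, 8 were on the array and tested. With Dox, 3 rose and 1 fell at day 2, and 4 rose and 0 fell at day 4. At day 4 the trophoblast and mesoderm factor gene Eomes rose by 3.55 ± 0.11 and the trophoblast factor gene Tfap2c by 3.39 ± 0.17. Mean log2 intensity at day 4 without and with Dox was 6.33 and 6.41 for Cdx2 and 6.69 and 6.77 for Ascl2. It was 1.69 and 1.80 for Tpbpa and 3.86 and 3.92 for Esx1. Summed intensity of the 8 markers was 293 to 296 and 967 to 978 at day 2 without and with Dox, and 243 to 246 and 571.2 to 571.4 at day 4. Bright genes weigh most in such a sum. Mean log2 intensity at day 2 without and with Dox was 4.24 and 9.24 for Tfap2c and 6.22 and 6.37 for Cdx2. Tpbpa was above background on no array of day 2 without Dox. Without DoxOn_day2 replicate 1 or either DoxOFF_day2 array, 0 fell at day 2. Their part in the Hand1 values was not tested.

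Isl1, the LIM homeodomain factor gene of heart progenitors, was 2.37 and 2.79 at day 2 without Dox and 3.20 and 3.22 with Dox. At day 4 it was 2.54 and 1.80 without Dox and 2.80 and 2.54 with Dox. The highest 2 of the 8 arrays were those of day 2 with Dox, and the lowest was DoxOFF_day4 replicate 2. The Dox change at day 2 was 0.63 ± 0.26 (95% interval 0.02 to 1.25), with an unadjusted limma p of 0.0453 and an adjusted p of 0.188. At day 4 it was 0.50 ± 0.26 (limma adjusted p = 0.208), with 0.87 (limma adjusted p = 0.0403) without DoxOFF_day4 replicate 1 and 0.12 (limma adjusted p = 0.745) without DoxOFF_day4 replicate 2. From day 2 to day 4 the change with Dox was -0.54 ± 0.26 (limma adjusted p = 0.217).

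DoxOFF_day4 replicate 2, on which Hand2 was highest and Hand1 and Isl1 were lowest, also had the highest blank mean of the 8 arrays, 60.9 scanner units against 52.3 on the lowest. The part of that level in the values of the 3 genes was not tested. Neuron genes, among them those of Isl1-expressing neurons, gave 2 that rose and 2 that fell of 12 tested with Dox at day 4 (median 0.08). The pan-neuronal tubulin gene Tubb3 fell by 1.56 ± 0.14 and the growth-cone gene Stmn2 rose by 1.51 ± 0.11. Without any 1 of the 4 day-4 arrays or of the 2 DoxOFF_day2 arrays, 1 fell. Their summed intensity was 421 to 541 over all arrays, and their part in the Isl1 values was not tested.

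The promoter windows of Hand2 and Isl1 are shown for comparison with that of Smarcd3, as the other 2 members with a RefSeq window that were measured. Hand2 lies at chr8:57320733-57321032 on the plus strand and Isl1 at chr13:116309639-116309938 on the minus strand of GRCm38.p6. Capitals mark E-box and GATA matches on either strand.
Hand2: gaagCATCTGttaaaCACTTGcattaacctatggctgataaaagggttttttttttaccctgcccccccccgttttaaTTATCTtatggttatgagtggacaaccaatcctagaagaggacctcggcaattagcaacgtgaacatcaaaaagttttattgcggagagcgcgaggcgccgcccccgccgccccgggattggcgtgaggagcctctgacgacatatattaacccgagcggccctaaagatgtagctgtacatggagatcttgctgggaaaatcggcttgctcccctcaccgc
Isl1: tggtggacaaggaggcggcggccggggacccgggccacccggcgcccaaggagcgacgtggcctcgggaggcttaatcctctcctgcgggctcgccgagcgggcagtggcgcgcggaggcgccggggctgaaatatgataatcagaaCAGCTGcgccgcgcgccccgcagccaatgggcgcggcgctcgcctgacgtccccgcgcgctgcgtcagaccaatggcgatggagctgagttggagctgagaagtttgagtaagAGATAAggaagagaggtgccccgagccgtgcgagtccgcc
Hand2 held 2 E-boxes and 1 GATA match, and Isl1 held 1 of each. Neither held a T-box or an NK2 match. Hand1 and Myocd have no window in the table used here.

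Myocd, the myocardin gene, was 2.56 and 1.86 at day 2 without Dox and 2.11 and 1.14 with Dox. At day 4 it was 2.24 and 1.68 without Dox and 2.22 and 1.90 with Dox. The groups overlapped in every comparison of Dox, and the SD within a group reached 0.68 log2. The Dox change was -0.59 ± 0.38 at day 2 (95% interval -1.49 to 0.32, limma adjusted p = 0.412) and 0.10 ± 0.38 at day 4 (-0.80 to 1.01, limma adjusted p = 0.884). With 7 of 8 arrays at or below the negative control limit, the Myocd values describe signal near background, and a small difference could have been missed.

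Smooth muscle genes that SRF and myocardin activate were examined beside Myocd. Of 13 tested, 8 rose and 0 fell with Dox at day 4 (median 1.26). The largest changes were in Tagln, higher by 7.02 ± 0.26, the calponin gene Cnn1 by 4.91 ± 0.19 and the actin gene Acta2 by 3.08 ± 0.16. Mean log2 intensity at day 4 without and with Dox was 3.37 and 3.23 for Myh11. It was 3.39 and 3.08 for Lmod1, and 5.05 and 5.12 for Mylk. At day 2, 0 rose and 3 fell, and 1 fell without DoxOn_day2 replicate 2. With Dox at day 4, Srf itself changed by 0.19 ± 0.11 (limma adjusted p = 0.246). Its other coactivator genes, Mrtfa and Mrtfb, changed by 0.06 and -0.18 with Dox at day 4, and neither passed.

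Among 11 family and partner genes of the members, 0 rose and 2 fell with Dox at day 4 (median 0.05). Without DoxOn_day4 replicate 2, 1 rose. Tcf12, a partner of Hand proteins, fell by 2.31 ± 0.12 (limma adjusted p = 2.28e-05) and Ldb1, the LIM-domain partner of Isl1, by 0.94 ± 0.10 (limma adjusted p = 0.000555). Tcf12 had risen by 3.08 ± 0.12 over time without Dox, as Smarcd3 had. For Dox at day 4 the relatives of Mef2c gave 0.41 ± 0.18 for Mef2a (limma adjusted p = 0.135) and 0.05 ± 0.11 for Mef2d (limma adjusted p = 0.804). At day 2, 1 of the 11, the E protein gene Tcf3, rose with Dox (limma adjusted p = 0.0448), a call that ended when any 1 array of day 2 or of day 4 without Dox was left out (limma adjusted p up to 0.202).

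Upstream of the members, Mesp1 was at least 267-fold higher with Dox at day 4, as a bound, since it was above background on neither day-4 array without Dox. At day 2 it was above background on all 4 arrays. The list of 25 other cardiac and lateral plate regulators tested holds Mesp1. With Dox at day 4, 5 of them rose and 7 fell (median -0.14). Without DoxOFF_day4 replicate 2, 3 rose. The homeobox genes Irx3 and Meis1 were lower, with a log2 change of -3.23 ± 0.14 for Irx3 and Meis1 at least 7.0-fold lower. Of 17 signal and receptor genes, 6 rose and 2 fell (median 0.37), with Bmp4 higher by 3.96 ± 0.10, the apelin receptor gene Aplnr by 3.39 ± 0.11 and Pdgfra by 2.19 ± 0.12. Without any 1 of the 4 day-4 arrays, 1 fell. At day 2, when no member passed, 1 of the 17 rose with Dox, Bmp4 by 5.09 ± 0.10, and 2 fell, Pdgfra (5.67-fold lower) and Fgf8, by 0.63 ± 0.15. The Fgf8 call ended when any 1 of the 8 arrays was left out (limma adjusted p up to 0.186).

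Downstream, 5 of 21 cardiac muscle genes rose and 1 fell with Dox at day 4 (median 0.13), with the atrial myosin light chain gene Myl7 higher by 2.00 ± 0.09. Without DoxOn_day4 replicate 1, 2 rose, without each other day-4 array 3 rose, and without any 1 of the 4, 0 fell. Mean log2 intensity of Myl7 was 7.42 and 6.87 at day 2 without and with Dox, and 3.92 and 5.92 at day 4. Its day-4 level with Dox was thus below both day-2 groups. Over time 1 of the 21 rose and 7 fell without Dox (median -0.39). With Dox 4 rose and 3 fell over time (median -0.21). Ryr2 was above background on no array of day 4. Markers of other cell types were counted for Dox at day 4. Skeletal muscle gave 2 that rose and 2 that fell of 11. Endothelium and blood gave 3 and 0 of 10, and endoderm 1 and 2 of 8. Without DoxOn_day4 replicate 1, 1 endothelial or blood marker fell.

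**Figure D5:**
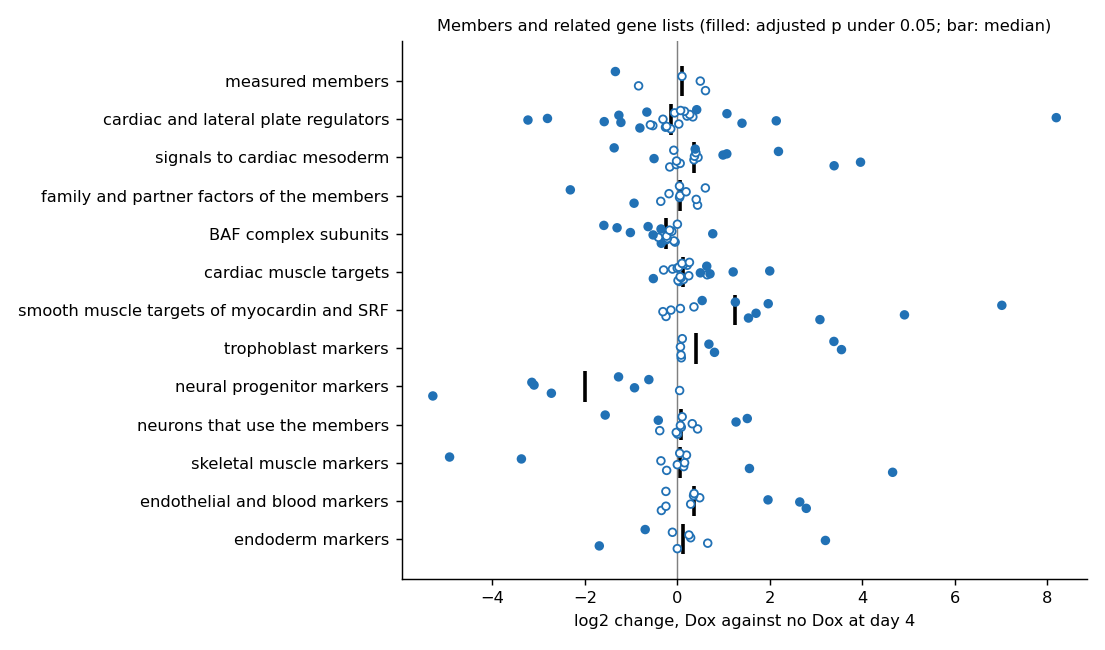
Log2 change with Dox at day 4 (x axis) of the 5 measured members and of the genes of 12 lists, 1 point per gene, filled where the limma adjusted p is under 0.05, with a bar at each median. The median lies at 1.26 for smooth muscle genes, -2.0 for neural progenitor markers and 0.10 for the members.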

How the data were processed

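RNA of 8 embryoid body samples was hybridised to Toray 3D-Gene arrays of 1 colour (Cy5, 635 nm). The deposited scanner files give a median intensity per spot, scaled over 3 scanner gains per the file headers, with no background subtracted. The authors' deposited table holds processed intensity values with a median of 25 on each array, with steps that no label or header states.

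Here the mean of each array's 2734 to 2736 blank spots was subtracted, since the scanner's background column followed the spot. Values were quantile normalised, floored at 2.06 and log2 transformed. Probes above the blank mean plus 2 SD on at least 2 arrays (21670; 1803 left out) were tested with limma 3.58.1 in R 4.3.3, with 1 mean per group over 8 arrays, eBayes (4 residual and 2.70 prior df) and 2-sided p-values adjusted by Benjamini-Hochberg. The code was tested on simulated data. Figures used matplotlib 3.10.9. Where all arrays of a group had a gene below background, its fold is a bound against the lowest level above background there, and summed intensities count a marker below background as 0.

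The text names the members, the 3 nearest profiles of a member with a called change of at least 1 log2, Tbx6 and T, and, per list and Dox comparison, some of the up to 3 called genes with the largest change. Genes named for not passing, for their role or for their change over time were chosen after their values were seen. The members and the 12 lists (190 genes) were chosen with earlier results of these data known.

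Replicate numbers come from the titles. Deviations of same-numbered arrays from their group means correlated at -0.27 to 0.23. The signs were mixed, so the numbers were not used as pairs in the main fit. Whether arrays of different groups share an effect was not settled. Alternatives covered background, normalisation, filter, floor, prior, deposited values, arrays fitted, a replicate block and each array left out.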

Additional observations from a re-analysis of the deposited data

Results flagged for a closer look

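The effect of Dox on Smarcd3 differed between the days. The difference, Dox effect at day 4 minus that at day 2, was -1.69 (limma adjusted p = 0.0036), with a Dox change of 0.35 ± 0.17 at day 2 and -1.34 ± 0.17 at day 4. Both Dox arrays of day 4 lay below both arrays without Dox, while at day 2 the groups overlapped. Leaving out each array in turn gave a difference of -1.92 to -1.45 (limma adjusted p = 0.00291 to 0.0222).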

How the results depend on the processing

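Over 520 refits of single member changes, 487 kept direction and side of the threshold, 8 newly passed, 3 no longer passed and 22 changed sign, with none of the 22 past the threshold before or after. The 3 lost were those of Smarcd3 under normexp on the scanner's background column, with an offset of 50. Under normexp, members called were 0 for Dox at day 4, 0 for the difference of the Dox effects and 0 over time without Dox, and over all probes limma called 1, 0, 0, 0 and 3 in the 5 comparisons (477, 856, 524, 605 and 784 at an unadjusted p under 0.05). Member changes that turned sign there were, for Dox at day 2, Isl1 (-0.0106) and Myocd (0.0013), for the difference Hand1 (-0.0046) and Isl1 (0.016), over time without Dox Hand1 (6e-04) and Isl1 (0.0049), and over time with Dox Hand1 (-0.004), Hand2 (-0.0022), Isl1 (0.0209) and Smarcd3 (-0.0061). Other named changes that turned there were Ss18 (-0.53), Pdgfra (0.0069), Fabp7 (0.0097) and Pax6 (0.0348) at day 2 and, at day 4, Phf10 (-0.34), Pdgfra (-0.004), Myl7 (-0.0165), Cnn1 (-0.10), Acta2 (-0.0461) and Tbx6 (-0.0545). With 4 times the floor, members called were 1 for Dox at day 2, 2 for the difference and 1 over time with Dox, Isl1 being the one added, and the floor then lies above most of its values. Leaving out 1 array gave 0 to 0 members called for Dox at day 2, 1 to 3 at day 4, 1 to 2 for the difference, 1 to 3 over time without Dox and 0 to 0 with Dox, and the highest counts came without DoxOFF_day4 replicate 1, which added Hand2 in all 3 and Isl1 in all but the difference. Member changes whose sign turned with 1 array left out ranged from -0.0723 to 0.198 for Hand2 with Dox at day 2, -0.175 to 0.378 for Myocd with Dox at day 4, -0.508 to 0.238 for the Isl1 difference and -0.601 to 0.0983 for Myocd over time without Dox. Over time with Dox they ranged from -0.219 to 0.294 for Hand1, -0.0044 to 0.266 for Hand2, -0.0758 to 0.187 for Smarcd3 and -0.0467 to 0.92 for Myocd. With the replicate block, members called were 0, 1, 1, 1 and 0, and no member's call changed. With the numbers of DoxOFF_day2 crossed, an alternative chosen after seeing the data, they were again 0, 1, 1, 1 and 0. Over all probes, the 2557 called for Dox at day 2 became 1346 in the 4 arrays alone and as few as 1149 with 1 array left out, and the 4109 over time with Dox became 2420 at the lowest. For the lists at day 4, the 5 cardiac muscle genes that rose became 2 with 4 times the floor and 3 with no background correction or in the 4 arrays alone, the 5 cardiac regulators became 3 among probes above background on 8 of 8 arrays, and under normexp 0 genes of the BAF, cardiac, signal, partner, smooth muscle and trophoblast lists passed. The 4 BAF genes that rose over time without Dox became 9 with no background correction. The cause of these shifts was not tested. Signal near the negative controls limits Hand1, Isl1 and Myocd, and 2 arrays per group limit all comparisons.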
